A study of Mus musculus with 50 samples.

Results

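Serum microRNAs (miRNAs) of mice with an ischemic stroke were compared directly with those of mice with an intracerebral hemorrhage. The comparison used the 5 libraries titled MCAO and the 5 titled ICH, chosen by label alone, 10 of the 25 libraries of the series. All animals were C57BL/6 mice aged 8 to 12 weeks. In MCAO mice a filament blocked the left middle cerebral artery for 30 min, and blood was drawn after 150 min of reperfusion. In ICH mice 20 µL of the animal's own blood was infused into the left striatum through a hole drilled in the skull, and the time from infusion to blood sampling is not given in the sources used here. MCAO_Sham mice were prepared in the same way with the artery left free of the filament, ICH_Sham mice had the needle placed and nothing injected, and Naive mice were left untreated, with 5 libraries in each of these groups. The direct comparison therefore sets stroke type, operation and any difference in sampling time side by side, and these cannot be told apart in it. Nothing in the labels ties each library to its own animal, so a p-value here covers the spread among libraries, part of which may be technical.

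MiRNAs are short RNAs that reach serum in vesicles or bound to proteins. They bind messenger RNAs mainly through the seed, bases 2 to 8 from the 5′ end, so miRNAs that share a seed form a family with overlapping targets. Neighbouring miRNA genes are often cut from a single primary transcript, and some miRNAs are made almost only in a certain tissue, which is why serum levels are studied as traces of tissue injury. A serum count does not show which cells released a miRNA, and fewer releasing cells cannot be told apart from less RNA released per cell.

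Of 199 miRNAs with enough counts to test, 29 (14.6%) differed between MCAO and ICH at an adjusted p under 0.05 in edgeR's quasi-likelihood test. MCAO was higher for 14 (7.04%) and ICH was higher for 15 (7.54%). The MCAO-higher set held miR-1298-5p, which is encoded in an intron of the serotonin receptor gene Htr2c, 6 of the 7 tested members of the epithelial miR-200 family, and both arms of miR-148a. The ICH-higher set held miR-203-3p and miR-205-5p, which are enriched in skin, miR-181a-5p and miR-181b-5p, the miR-199 and miR-214 group of mesenchymal cells, and miR-615-3p from the Hoxc locus. The median log2 fold change (MCAO over ICH) over all 199 miRNAs was 0.05. All 29 kept their sign when any 1 of the 10 libraries was left out, which their choice by these libraries largely fixes. Of the 29, 15 passed in every such fit. None of the 29 passed in all 17 other settings, among them the 2 MCAO libraries of the upper index tags alone. miR-181a-5p, miR-181b-5p, miR-199a-5p, the joint miR-199a-3p entry and miR-200c-3p passed in all but 1, and miR-1298-5p passed in all 15 that tested it.

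The sequences that carry these differences are shown with the seed in capitals, 5′ to 3′, as RefSeq gives them for GRCm38.p6. The deposited table names mature miRNAs without coordinates, so positions here are those of the matching RefSeq entries, and 26 of the 29 miRNAs had a match. The first set lies in introns of Htr2c on the X chromosome, and its member miR-1298-5p separated the groups most.
miR-1298-5p: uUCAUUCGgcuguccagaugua
miR-448-3p: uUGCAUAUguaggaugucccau
miR-1264-3p: cAAAUCUUauuugagcaccugu
The second set is the miR-200 family, shown because its members share seeds and 6 of the 7 passed with MCAO higher, all but miR-429-3p.
miR-141-3p: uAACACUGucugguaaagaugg
miR-200a-3p: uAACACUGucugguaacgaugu
miR-200b-3p: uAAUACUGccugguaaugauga
miR-200c-3p: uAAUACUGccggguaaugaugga
miR-429-3p: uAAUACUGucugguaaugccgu
miR-200a-5p: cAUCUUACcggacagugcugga
miR-200b-5p: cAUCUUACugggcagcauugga
The third set holds ICH-higher miRNAs, with miR-181d-5p added because it has the seed of miR-181a-5p and miR-181b-5p and did not pass.
miR-203-3p: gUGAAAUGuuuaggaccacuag
miR-205-5p: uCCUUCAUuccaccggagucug
miR-181a-5p: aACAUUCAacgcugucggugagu
miR-181b-5p: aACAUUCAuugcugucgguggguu
miR-181d-5p: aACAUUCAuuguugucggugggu
miR-199a-5p: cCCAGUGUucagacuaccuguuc
miR-199a-3p: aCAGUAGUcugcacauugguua
miR-214-3p: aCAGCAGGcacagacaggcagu
miR-615-3p: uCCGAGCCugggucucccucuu

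Within the miR-200 family, miR-141-3p and miR-200a-3p have the same seed and 20 of 22 bases in common, counted position by position from the 5′ end. The pair miR-200b-3p and miR-200c-3p also has 20 of 22 in common. The 5p arms miR-200a-5p and miR-200b-5p share another seed and 17 of 22 bases. Among the 26 matched miRNAs there were 22 seeds, of which 4 occurred in a pair of called miRNAs, namely those of miR-141-3p with miR-200a-3p, miR-200b-3p with miR-200c-3p, miR-200a-5p with miR-200b-5p and miR-181a-5p with miR-181b-5p. Each of these pairs moved in a single direction. No seed of the matched miRNAs was called in both directions. How often miRNAs sharing a seed were called together over all tested miRNAs was not counted, so this is no result about seeds. Members of a pair are alike in sequence, and how reads matching several miRNAs were counted is not given, so their values may not be independent. The called miRNAs without a match, miR-23b-3p, miR-34c-5p and miR-199b-5p, are left out here. Pairs such as miR-23a-3p with miR-23b-3p are therefore not counted.

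The 10 libraries held 72222 (MCAO 5) to 315646 counts (MCAO 2), summed over a pair of sequencing runs. The log2 total did not differ detectably between the groups (difference 0.22, adjusted p = 0.762, exact two-sided permutation test, 5 against 5, 6 values compared). Levels are given as CPM, the counts divided by the library size after TMM scaling (trimmed mean of M values) and set to a common total. MCAO 2 stood apart, with a scaling factor of 0.634 and 43.4% of its counts in miR-148a-3p. It was the MCAO library farthest from the ICH mean for 22 of the 29 called miRNAs, and MCAO 5 was the nearest for 20 of them, so results are given below with and without MCAO 2 where the call depends on it. Per the labels, MCAO 2, 3 and 4 carried index tags numbered below those of the 5 ICH libraries and MCAO 1 and 5 tags numbered above them, so tag and group cannot be told apart.

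**Figure D1:**
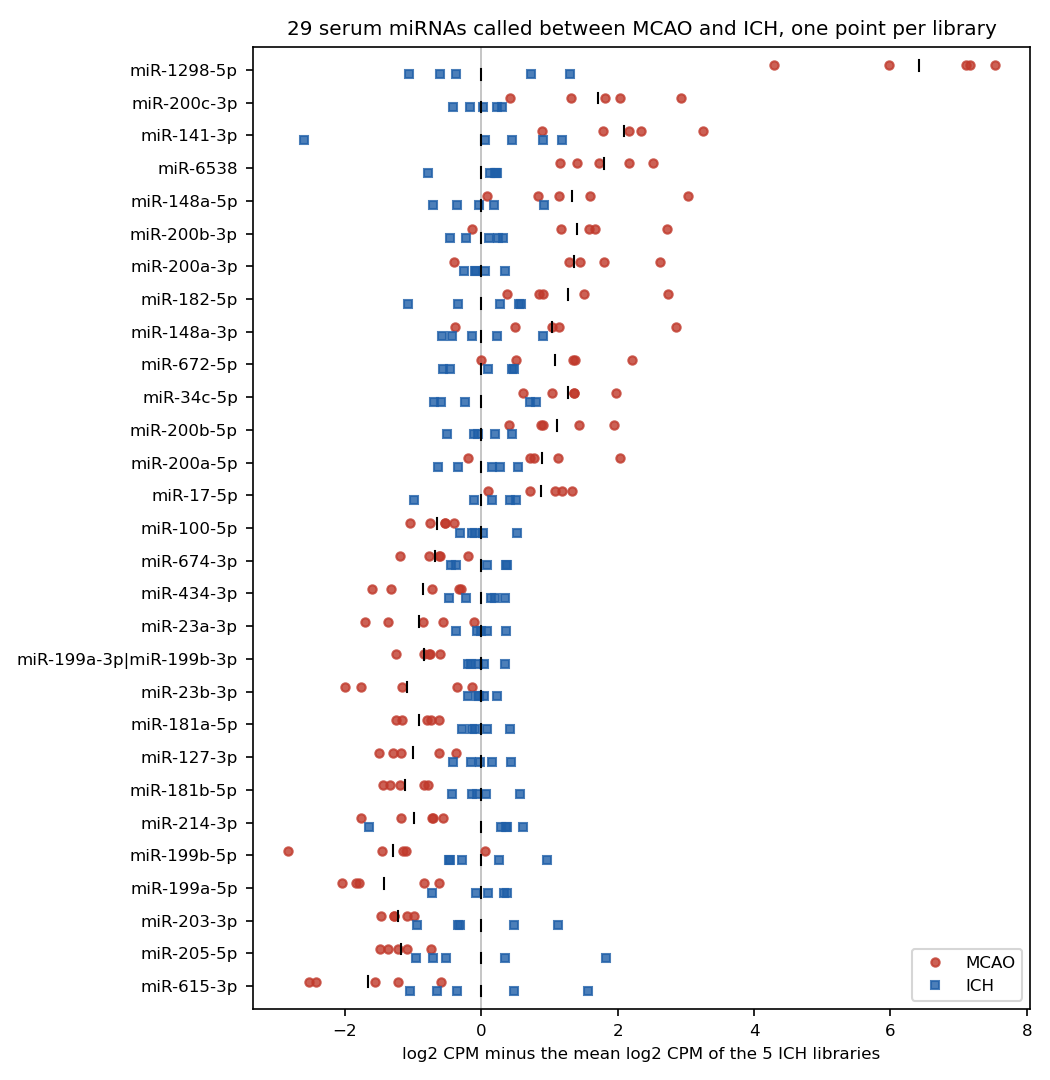
Level of each of the 29 called miRNAs (vertical axis, sorted by log2 fold change) as log2 CPM minus the mean of the 5 ICH libraries (horizontal axis), with red circles for the 5 MCAO libraries, blue squares for the 5 ICH libraries and short black lines for the group means. The MCAO circles of miR-1298-5p lie wholly apart, and those of most other miRNAs touch or cross the ICH squares.

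The plot of called miRNAs by library shows how far the 5 and 5 values of each miRNA overlap, with 8 of the 29 free of overlap. ICH 1 was the ICH library nearest to the MCAO mean for 10 of the 29 miRNAs and ICH 3 for 9, so the nearest library was spread more evenly in the ICH group than in the MCAO group, where MCAO 5 led.

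The miRNA that separated the groups most was miR-1298-5p. Its hairpin lies at chrX:147064905-147065002 (plus strand, GRCm38) within Htr2c, in an intron; this gene encodes a serotonin receptor known for its expression in brain and choroid plexus. Counts of miR-1298-5p were 29, 333, 291, 210 and 60 in MCAO 1 to 5 and 2, 1, 3, 1 and 1 in ICH 1 to 5. Levels were 235.4, 1669, 2232, 1736 and 763 CPM in MCAO and 20.0, 9.35, 29.8, 5.76 and 7.90 CPM in ICH. Every MCAO library was far above every ICH library, with MCAO 1 the lowest and MCAO 3 the highest of its group. The log2 fold change was 6.52 ± 0.59 (SE, adjusted p = 1.61e-09). Only MCAO libraries reached the filter's minimum count of 10, as no other library held more than 8 counts. miR-1298-5p was thus tested only through the group in which it is high. Summed over 5 libraries, 923 counts stood against 8, a ratio of 107 after scaling (95% exact interval 54.3 to 250, counting error only).

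Its neighbours in the same host gene had too few counts for the model. They were compared over libraries by exact permutation tests, adjusted over 7 miRNAs. These 7 came from lists chosen with earlier results of these data known, so their p-values give no independent support. miR-448-3p, from the same receptor gene, had 0, 38, 22, 29 and 8 counts in MCAO 1 to 5 and 1, 0, 1, 1 and 0 in ICH 1 to 5. MCAO 1 held none, so the groups overlapped, and the ratio of 30.1 (95% interval 10.0 to 149) did not pass (adjusted p = 0.111, exact permutation test). miR-1264-3p had 1, 9, 10, 14 and 4 counts in MCAO and a single count in ICH, in ICH 4. Its ratio was 35.4 (95% interval 5.98 to 1435) and its adjusted p was 0.0278 in the exact permutation test, as for miR-1298-5p itself, 0.00794 unadjusted being the smallest p that 5 against 5 can give. The 3p arm of miR-1298 was counted 12 times in MCAO, in MCAO 2, 3 and 4, and 1 time in ICH (adjusted p = 0.292, exact permutation test). A single count of miR-1912-3p, in MCAO 4, completed the host gene's set, and the other 5 listed members were at 0 in all 25 libraries.

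**Figure D2:**
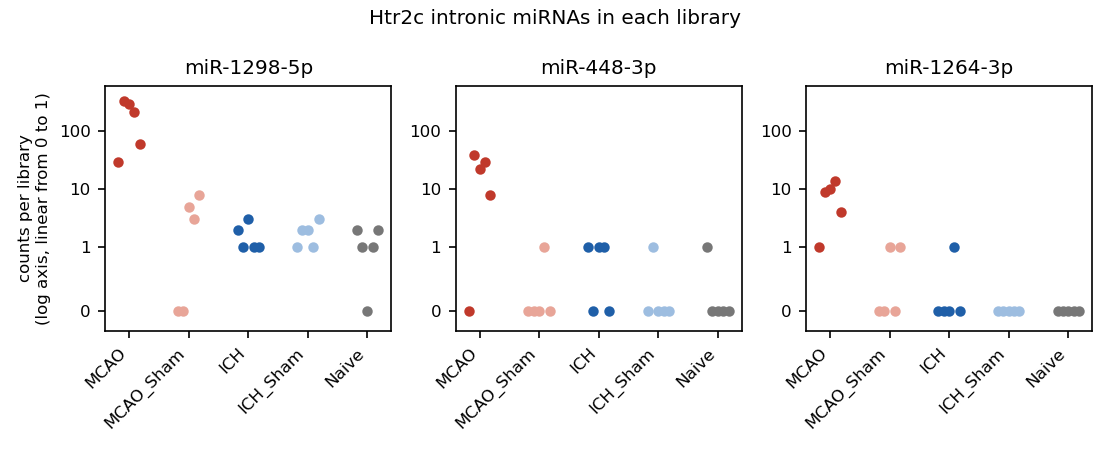
Counts per library of miR-1298-5p, miR-448-3p and miR-1264-3p, which lie within Htr2c, in all 5 groups, with 1 point per library on a log axis that is linear from 0 to 1. MCAO libraries reach 333 counts of miR-1298-5p, and no ICH library exceeds 3 counts of any of the 3.

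The plot of counts from the Htr2c introns shows that MCAO 2, 3 and 4, the libraries of the lower index tags, held more counts of all 3 miRNAs than MCAO 1 and 5. These counts are not scaled to library size. After scaling the split did not hold for miR-1264-3p, at 50.9 CPM in MCAO 5 and 45.1 CPM in MCAO 2. Summed counts of miR-1298-5p were 8 in ICH, 16 in MCAO_Sham, 9 in ICH_Sham and 6 in Naive. After scaling, the mean was 14.6 CPM in ICH, 33.4 in MCAO_Sham, 17.2 in ICH_Sham and 22.1 in Naive. Summed counts of miR-448-3p were 3 in ICH and 1 in each control group. Those of miR-1264-3p were 1 in ICH, 2 in MCAO_Sham and 0 in ICH_Sham and Naive. miR-210-3p, the standard hypoxia-induced miRNA, was counted 42 times in MCAO and 47 times in ICH, a ratio of 0.832 (95% interval 0.536 to 1.29, adjusted p = 0.944, exact permutation test). The tested miRNAs whose level followed miR-1298-5p most closely over the 10 libraries, by Pearson correlation of log2 CPM, were miR-200c-3p, miR-223-5p, miR-30c-5p, miR-34c-5p and miR-6538; the 2 groups form clusters on that scale, so no coefficient is given.

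The miR-200 family, best known for keeping epithelial cells in their epithelial state, was higher in MCAO. Of its 7 tested members 6 passed as MCAO-higher, where 7.04% of all 199 miRNAs did, with a median log2 fold change of 1.63 against 0.05 over all 199 miRNAs. Its hairpins lie in 2 places, miR-200b, miR-200a and miR-429 at chr4:156053905-156055750 (minus strand, in introns of Ttll10 and Gm13648) and miR-200c and miR-141 at chr6:124717914-124718390 (minus strand, in an intron of Gm15884). Members of both places passed. miR-200c-3p was at 3937, 8494, 4580, 2777 and 1501 CPM in MCAO 1 to 5 and at 839, 1141, 1380, 996 and 1311 CPM in ICH 1 to 5. The groups of miR-200c-3p did not overlap, with MCAO 5 the lowest MCAO library and ICH 3 the highest ICH library. The log2 fold change was 1.91 ± 0.36 (adjusted p = 0.00123), and 1.47 without MCAO 2 (adjusted p = 0.00590).

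The abundant miR-200a-3p was at 14117, 24860, 11062, 9877 and 3053 CPM in MCAO and 3798, 4207, 3812, 5160 and 3403 CPM in ICH. Its seed relative miR-141-3p was rarer, at 243.5, 456, 214.8, 165 and 89.0 CPM and 50.0, 65.4, 89.3, 109 and 7.90 CPM. For both, 4 of the 5 MCAO libraries lay above all ICH libraries, and MCAO 5 lay below all of them for miR-200a-3p and within them for miR-141-3p. Log2 fold changes were 1.63 ± 0.35 for miR-200a-3p (adjusted p = 0.00171) and 1.86 ± 0.45 for miR-141-3p (adjusted p = 0.00379).

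miR-200b-3p was at 5845, 12903, 6214, 4364 and 1768 CPM in MCAO and 1419, 1674, 2432, 2298 and 2108 CPM in ICH, with MCAO 5 again inside the ICH range (log2 fold change 1.65 ± 0.35, adjusted p = 0.00171). The 5p arms of miR-200b and miR-200a rose less, by 1.19 ± 0.30 (adjusted p = 0.00604) and 1.04 ± 0.30 (adjusted p = 0.0180), and miR-200a-5p is named here because its values were seen. Without MCAO 2 neither 5p arm passed (log2 fold changes 0.89 and 0.60, adjusted p = 0.0638 and 0.217), while the 4 called 3p arms still did. The member that did not pass was miR-429-3p (0.91 ± 0.33, adjusted p = 0.0649), although it has the seed of miR-200b-3p and lies in the same cluster. The summed family level was 7110 to 49554 CPM in MCAO (median 23527) and 6926 to 9519 CPM in ICH (median 7816), beside 5675 to 16428 CPM in MCAO_Sham, 6746 to 10668 CPM in ICH_Sham and 4279 to 9994 CPM in Naive.

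Among the other epithelial miRNAs listed, miR-182-5p alone was called MCAO-higher. miR-182-5p, of the sensory-organ and epithelial miR-183 cluster, was at 1072, 3803, 1611, 1025 and 738 CPM in MCAO and 849, 271, 834, 691 and 450.1 CPM in ICH. Its difference (1.43 ± 0.47, adjusted p = 0.0373) rested on MCAO 2, which held 3803 CPM, and was 0.82 without that library (adjusted p = 0.340). Its cluster neighbour miR-183-5p did not pass (1.21 ± 0.56, adjusted p = 0.164). Both differed the other way between the shams (-1.02 for miR-182-5p and -1.38 for miR-183-5p, MCAO_Sham over ICH_Sham), where neither passed. That direction rested on ICH_Sham 4, which held 3698 CPM of miR-182-5p and 7068 CPM of miR-183-5p, and without it the sham differences were -0.15 and 0.01.

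The 2 arms of miR-148a, an miRNA abundant in liver and in serum, were higher in MCAO. miR-148a-3p was at 209260, 687120, 194460, 133090 and 72741 CPM in MCAO and 177220, 111510, 70422, 85992 and 63189 CPM in ICH. MCAO 2 stood far above the other libraries, MCAO 1 and 3 were also above all ICH libraries, and MCAO 4 and 5 lay within the ICH range. The log2 fold change was 1.35 ± 0.41 (adjusted p = 0.0211) and fell to 0.55 without MCAO 2 (adjusted p = 0.351). The 5p arm gave 1.67 ± 0.39 (adjusted p = 0.00373) with all libraries and 0.91 without MCAO 2 (adjusted p = 0.0667). The seed relatives miR-148b-3p (0.50 ± 0.30) and miR-152-3p (0.16 ± 0.25) did not pass.

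A further 4 MCAO-higher miRNAs belong to no family above. miR-6538, a GC-rich miRNA in an intron of Rnf144a, was at 114, 195, 153, 90.9 and 76.3 CPM in MCAO and 39.98, 37.4, 19.9, 40.3 and 39.5 CPM in ICH, without overlap. Libraries held few counts at these levels, so the lack of overlap of miR-6538 rests on few reads. All MCAO_Sham, ICH_Sham and Naive libraries also lay above all ICH libraries, at 45.3 CPM (Naive 5) or more. Over Naive, the mean log2 difference of miR-6538 was -0.90 in ICH and 0.46 in MCAO, so ICH lay farther from Naive. The log2 fold change of miR-6538 (MCAO over ICH) was 1.83 ± 0.40 (adjusted p = 0.00184). Of its bases 94.7% are G or C, beside 36.4% to 63.6% in the other called miRNAs with a sequence (3 had none). Over the 170 tested miRNAs with a sequence, GC content and log2 fold change had a Pearson correlation of -0.16, across miRNAs that are not independent.

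miR-34c-5p, of the p53-induced miR-34 family, was at 114, 190.4, 292, 190.1 and 153 CPM in MCAO and 129.9, 122, 49.6, 46.1 and 63.2 CPM in ICH (1.24 ± 0.34, adjusted p = 0.0123). miR-672-5p, from an intron of the X-linked gene Nexmif, was at 146, 476, 261, 264 and 102 CPM and 139.9, 74.8, 109, 69.1 and 142 CPM (1.28 ± 0.33, adjusted p = 0.00604). Of the MCAO libraries, only MCAO 1 lay within the ICH range of miR-34c-5p and only MCAO 5 within that of miR-672-5p. miR-672-5p did not pass without MCAO 2 (adjusted p = 0.0854), nor miR-34c-5p without MCAO 3 (adjusted p = 0.0716). miR-17-5p, of the growth-promoting miR-17-92 cluster, was barely past the threshold (0.86 ± 0.30, adjusted p = 0.0498), was lost in all fits leaving out 1 library except that without MCAO 5, and was the only 1 of 7 tested members of its clusters to pass. Of all 199 miRNAs 7.04% were called MCAO-higher and 14.6% in either direction, so 1 of 7 does not set these clusters apart.

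The skin-enriched miR-203-3p and miR-205-5p, which regulate keratinocyte differentiation and growth, were higher in ICH, against the direction of the miR-200 family. miR-203-3p was at 4676, 5312, 6566, 6092 and 5317 CPM in MCAO 1 to 5 and 10184, 10462, 28302, 6720 and 17981 CPM in ICH 1 to 5. The groups did not overlap, with ICH 3 and ICH 5 highest. Its log2 fold change was -1.40 ± 0.28 (adjusted p = 0.00123). miR-205-5p was at 771, 857, 936, 1198 and 712 CPM in MCAO and 1219, 1028, 7118, 1394 and 2551 CPM in ICH. ICH 3 held the highest level by far, ICH 2 lay below MCAO 4, and the log2 fold change of -1.57 ± 0.38 (adjusted p = 0.00443) became -0.86 without ICH 3 (adjusted p = 0.0429).

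The 2 genes lie apart, at chr12:112130880-112130955 and chr1:193507463-193507530, and both were among the 15 called in all fits leaving out 1 library. The third member of the list, miR-203-5p, had too few counts to be tested. Their summed level was 8114 to 35419 CPM in ICH and 5447 to 7502 CPM in MCAO. A ratio within a library is free of the scaling, so counts of the miR-200 family were also divided by those of this pair. The log2 ratio was 0.24 to 3.01 in MCAO (median 1.65) and -2.04 to 0.23 in ICH (median -0.72). The family and the pair were called in opposite directions in these same libraries, which largely fixes the direction of this ratio. The lowest MCAO ratio (MCAO 5) and the highest ICH ratio (ICH 4) almost met, and the ratio in the 3 control groups lay at medians of 0.25 (MCAO_Sham), -0.02 (ICH_Sham) and 0.51 (Naive).

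**Figure D3:**
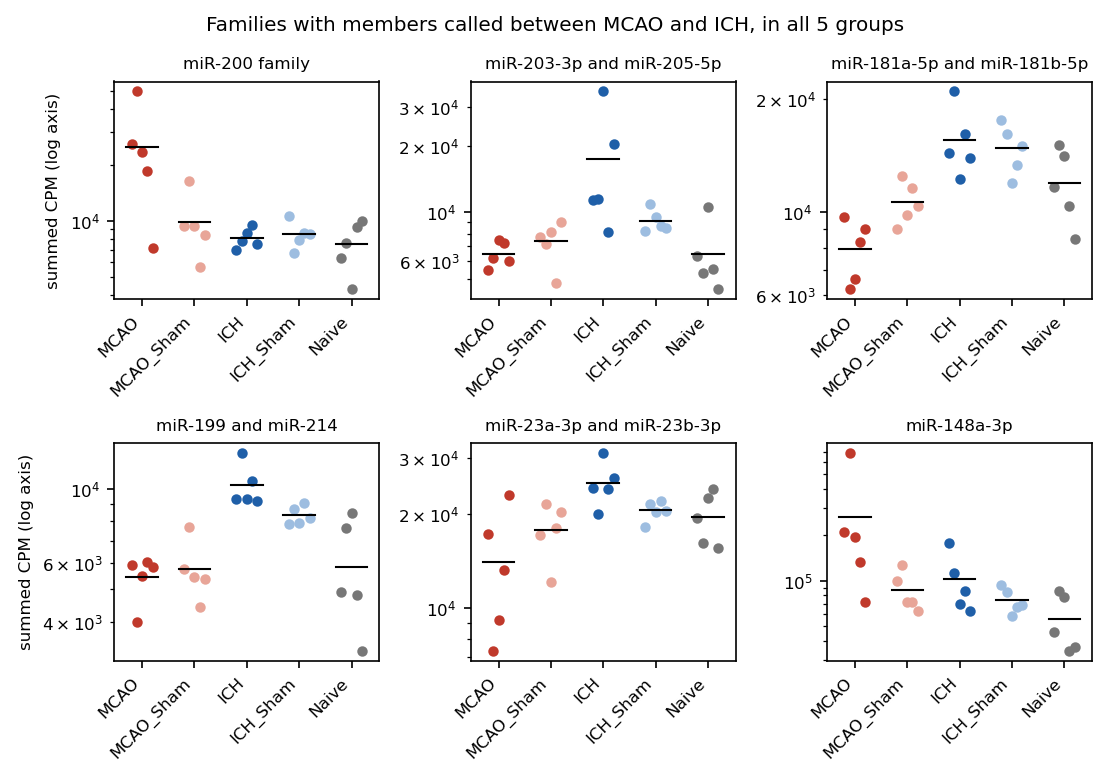
Summed CPM (log axis) of the miR-200 family, miR-203-3p with miR-205-5p, miR-181a-5p with miR-181b-5p, miR-199 with miR-214, miR-23a-3p with miR-23b-3p, and miR-148a-3p alone, with 1 point per library in the 5 groups and a black line at the group mean. The miR-200 family reaches 49554 CPM in MCAO and at most 9519 CPM in ICH, while the miR-181 pair is at 12230 CPM or more in ICH and at most 9669 CPM in MCAO.

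miR-181a-5p and miR-181b-5p, which set the sensitivity of T cell receptor signalling and are also abundant in brain, were higher in ICH. miR-181a-5p was at 7631, 4926, 5247, 6794 and 7021 CPM in MCAO and 11023, 15754, 9619, 12438 and 10700 CPM in ICH. miR-181b-5p was at 2038, 1288, 1388, 1537 and 1959 CPM in MCAO and 3348, 5180, 2611, 3686 and 3182 CPM in ICH. Neither overlapped between the groups, and ICH 2 held the highest level of both. Log2 fold changes were -0.91 ± 0.18 (adjusted p = 0.00123) and -1.14 ± 0.23 (adjusted p = 0.00153).

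Each of the pair is made from hairpins at chr1:137966455-137966718 and chr2:38852735-38853918, and counts of the mature forms cannot be assigned to a place. miR-181d-5p, from another place (chr8:84178716-84178787), has 22 of 23 bases in common with miR-181b-5p. Its log2 fold change was -0.03 ± 0.21 (adjusted p = 0.934), with levels of 414, 456, 483, 512 and 407 CPM in MCAO and 529.7, 486, 467, 489 and 355 CPM in ICH, which overlap throughout. How reads that match several miRNAs were counted is not given in the sources used here, so the split of reads between miR-181b-5p and miR-181d-5p is uncertain. miR-150-5p, the main miRNA of mature lymphocytes, did not differ detectably (0.22 ± 0.26, adjusted p = 0.661). Of the 5 tested lymphocyte miRNAs the miR-181 pair alone passed, ICH-higher. Among all 199 miRNAs 7.54% were called ICH-higher and 14.6% in either direction.

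As the plot of summed families shows, the control groups did not all lie between the 2 strokes. Summed miR-181a-5p and miR-181b-5p had medians of 8331 CPM in MCAO, 10384 in MCAO_Sham, 11628 in Naive, 14371 in ICH and 14998 in ICH_Sham. The ICH_Sham range of 11958 to 17614 CPM lay wholly above the MCAO range of 6214 to 9669 CPM.

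The mesenchymal miR-199a, miR-199b-5p and miR-214-3p were higher in ICH. The hairpins Mir199a-2 and Mir214 lie together in the antisense transcript Dnm3os at chr1:162217814-162223477. Mir199a-1 lies at chr9:21496495-21496564 within Dnm2 and Mir199b at chr2:32318460-32318569 within Dnm1, on the opposite strand of each gene, so counts of the mature miR-199 forms cannot be assigned to a place. The joint entry of miR-199a-3p and miR-199b-3p, whose sequences are identical, was at 4814, 3463, 4864, 5406 and 4579 CPM in MCAO and 7186, 10443, 7912, 8436 and 7383 CPM in ICH. Its groups did not overlap, and the log2 fold change was -0.84 ± 0.20 (adjusted p = 0.00379). miR-199a-5p was at 844, 366, 437, 422 and 979 CPM and 1909, 1963, 913, 1612 and 1429 CPM, with MCAO 5 just above ICH 3 (-1.38 ± 0.32, adjusted p = 0.00344). miR-199a-3p is also abundant in platelets, and it alone passed among 10 tested myeloid and platelet miRNAs. This share is near the 7.54% of all 199 miRNAs that were called ICH-higher.

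miR-199b-5p fell by 1.19 on the log2 scale in MCAO (adjusted p = 0.0357) and was lost without MCAO 2, 3 or 4 or ICH 4, at levels of 15.3 to 213.1 CPM. miR-214-3p was at 114, 55.1, 115, 82.7 and 127 CPM in MCAO and 60.0, 243.1, 288, 241.9 and 229.0 CPM in ICH. ICH 1 lay among the MCAO libraries, and the difference (-1.15 ± 0.34, adjusted p = 0.0180) did not pass without MCAO 2 (adjusted p = 0.0721). The 5p arm miR-214-5p did not pass (-0.83 ± 0.37, adjusted p = 0.144). Smooth muscle miRNAs on the same list, miR-143-3p (-0.12) and miR-145a-5p (0.37), did not pass either, so 3 of the 10 tested members of the list were called, all ICH-higher, where 7.54% of all 199 miRNAs were.

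miR-615-3p, from an intron of Hoxc5 at chr15:103014969-103014990, had the largest ICH-higher difference with all libraries. It was at 97.4, 50.1, 53.7, 124 and 191 CPM in MCAO and 139.9, 224.4, 854, 184 and 403 CPM in ICH. MCAO 5 lay above ICH 1 and ICH 4, and ICH 3 was the highest library. The log2 fold change was -1.87 ± 0.44 (adjusted p = 0.00373). Without ICH 3 it was -1.37 (adjusted p = 0.0196), smaller than that of miR-199a-5p at -1.59. The other Hox-locus miRNAs, miR-10b-5p (-0.53 ± 0.25) and miR-10a-5p (-0.49 ± 0.27), did not pass.

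miR-127-3p and miR-434-3p come from the imprinted Dlk1-Dio3 region, antisense to Rtl1 within chr12:109591715-109594599. miR-127-3p was at 544, 436, 506, 802 and 954 CPM in MCAO and 1109, 926, 1380, 1670 and 1216 CPM in ICH, where MCAO 5 was just above ICH 2 (-0.97 ± 0.23, adjusted p = 0.00379). miR-434-3p gave -0.81 ± 0.25 (adjusted p = 0.0259) and was lost without MCAO 2, MCAO 3 or ICH 5. Of the 12 tested miRNAs of the region 2 passed, both ICH-higher, with a median of -0.38 over the 12. A further 9 were negative and 1 was positive without passing. Over all 199 miRNAs 7.54% were called ICH-higher and 14.6% in either direction. No list test was run, so no enrichment is claimed for this region.

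The seed relatives miR-23a-3p and miR-23b-3p, the former often used as a stable serum miRNA in hemolysis checks, were also higher in ICH. miR-23a-3p was at 13947, 6279, 7963, 11390 and 19130 CPM in MCAO and 20507, 15847, 26306, 19631 and 21866 CPM in ICH (-0.83 ± 0.23, adjusted p = 0.0108). MCAO 2 was lowest and MCAO 5 lay within the ICH range. Its cluster neighbours miR-24-3p (-0.15) and miR-27a-3p (-0.02) did not pass. miR-23b-3p gave -0.91 ± 0.27 (adjusted p = 0.0191) and was lost without MCAO 2, 3 or 4.

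miR-100-5p, of the miR-99 family, was at 8191, 6990, 5738, 8183 and 8929 CPM in MCAO and 16900, 10724, 9490, 11022 and 12066 CPM in ICH, without overlap (-0.66 ± 0.19, adjusted p = 0.0180), and it was lost without ICH 1 (adjusted p = 0.0620). It was the only 1 of 7 tested members of the miR-99, miR-100 and miR-125 group to pass. Of all 199 miRNAs 7.54% were called ICH-higher and 14.6% in either direction, so 1 of 7 does not set the group apart. The 7 had log2 fold changes of -0.66 to -0.16. miR-674-3p, named here because its values were seen, completed the 15 (-0.69 ± 0.21, adjusted p = 0.0211) and was lost without MCAO 2 or ICH 5.

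By the overlap of library values alone, 5 miRNAs were higher in all MCAO than in all ICH libraries (2.51%) and 7 were lower (3.52%). Of these 12, 8 were also called. The others, named here because of their values, were miR-223-5p (0.51 ± 0.20, adjusted p = 0.0901) and miR-186-5p (0.45 ± 0.22, adjusted p = 0.187) with MCAO higher, and miR-708-3p (-0.57 ± 0.21, adjusted p = 0.0612) and miR-140-3p (-0.33 ± 0.17, adjusted p = 0.187) with ICH higher. miR-223-5p, the minor arm of a neutrophil miRNA, was at 560.1, 792, 790.1, 579 and 661 CPM in MCAO and 459.7, 505, 447, 426 and 537 CPM in ICH. The major arm miR-223-3p gave 0.29 ± 0.23 (adjusted p = 0.447).

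Markers of the tissues that could feed serum were read beside these differences, each list by its members called and its summed level. Of 15 listed neuron-enriched miRNAs 14 had a count, but only 3 had enough counts to be tested, so most were not compared. None of these 3 passed (among them miR-9-5p at -0.11 ± 0.59 and miR-128-3p at 0.14 ± 0.19). The 1 tested of 3 oligodendrocyte miRNAs, miR-219a-2-3p, did not pass either (-0.96 ± 0.77, adjusted p = 0.462). Nor did any of 5 muscle miRNAs, of 4 liver and gut miRNAs with miR-122-5p at -0.10 ± 0.70, of 4 endothelial miRNAs, of 2 endocrine miRNAs, of 2 choroid plexus and eye miRNAs with miR-204-5p at 0.85 ± 0.31 (adjusted p = 0.0710), or of 7 let-7, 7 miR-30 and 3 miR-29 family members. For these lists the summed levels of the groups overlapped, as for liver and gut with 38524 to 101520 CPM in MCAO and 41862 to 91810 CPM in ICH.

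No red cell miRNA passed (0 of 7 tested, median 0.37), with miR-451a at 0.44 ± 0.31 (adjusted p = 0.385) and miR-486-5p, counted jointly with miR-3107-5p, at 0.11 ± 0.26 (adjusted p = 0.830). The summed red cell level was 34206 to 52619 CPM in MCAO and 32590 to 51029 CPM in ICH. Ratios to miR-23a-3p did move with the groups. The log2 ratio of miR-486-5p to miR-23a-3p was 0.59, 1.08, 0.60, 0.97 and 0.47 in MCAO 1 to 5 and -0.05, -0.08, -0.88, -0.11 and -0.06 in ICH 1 to 5, without overlap (difference 0.98, adjusted p = 0.0476, exact permutation test, 6 comparisons). With miR-451a in place of miR-486-5p it was -0.68 ± 0.69 in MCAO and -2.15 ± 0.91 in ICH (SD, n = 5 each, adjusted p = 0.0952, exact permutation test). Since miR-23a-3p was itself called, the ratios hold its difference as well; 23 miRNAs were called with miR-451a alone as a covariate and 7 with its ratio to miR-23a-3p, and the part of red cell release in the calls was otherwise not tested.

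The shams of the 2 operations share no library with the direct comparison, and their difference was set beside it. MCAO_Sham and ICH_Sham gave no call among 199 miRNAs (0%) in edgeR's test, with 25 at an unadjusted p under 0.05, 6 calls by DESeq2 and 0 by limma voom. Of the 29 miRNAs called between the strokes, 25 had the same sign between the shams, where 55.3% of all 199 miRNAs did. Each of the 29 had the larger size between the strokes, which their choice by the stroke difference largely fixes, as it does the medians that follow. For the 14 MCAO-higher miRNAs the median log2 fold change was 1.53 between strokes and 0.26 between shams, and for the 15 ICH-higher miRNAs it was -0.97 and -0.32. The exceptions in sign were miR-615-3p, miR-182-5p, miR-674-3p and miR-17-5p. miR-199b-5p (-1.19 and -1.03) and the joint miR-199a-3p entry (-0.84 and -0.59) came closest to the same size in both.

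**Figure D4:**
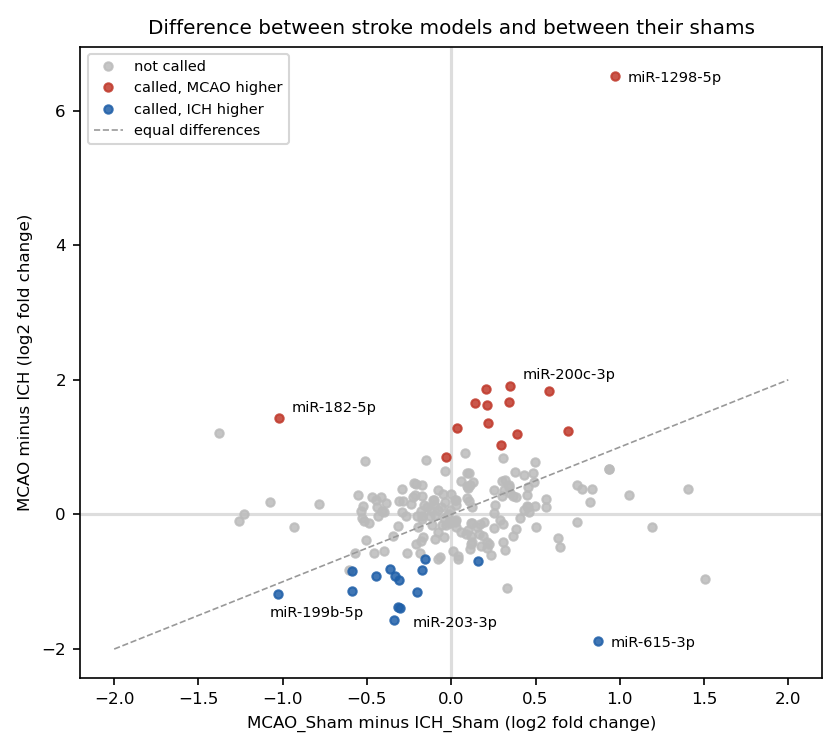
Log2 fold change of MCAO over ICH (vertical axis) against that of MCAO_Sham over ICH_Sham (horizontal axis) for the 199 tested miRNAs, 1 point each, with the 29 called between MCAO and ICH in red (MCAO higher) or blue (ICH higher) and a dashed line where both differences are equal. miR-1298-5p lies alone at 6.52 against 0.97, and miR-615-3p lies at -1.87 against 0.87.

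The plot of stroke against sham differences has most coloured points at small sham values and larger stroke values. Whether the stroke difference exceeded the sham difference was tested by the interaction, in which 2 miRNAs (1.01%) passed. miR-1298-5p gave 5.55 ± 1.27 and miR-615-3p gave -2.75 ± 0.62 (adjusted p = 0.0148 for each). Both calls were lost without ICH_Sham 3 (adjusted p = 0.0549 for each). Without ICH_Sham 5 miR-1298-5p was lost (5.25, adjusted p = 0.0932), and miR-182-5p passed beside miR-615-3p. Without MCAO 5, 7 miRNAs passed. For the miR-200 family the interaction of miR-200c-3p was 1.56 ± 0.51 (adjusted p = 0.137), so its stroke difference was not shown to exceed the sham difference. Set beside Naive, the mean log2 level of 12 of the 14 MCAO-higher miRNAs was nearer to ICH than to MCAO, and of the 15 ICH-higher miRNAs 8 had Naive nearer to ICH and 7 nearer to MCAO.

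Index tags divided the MCAO libraries, and each range was compared with the 5 ICH libraries in its own fit. The 3 MCAO libraries of the lower tags gave 50 calls, which included all 29, and the 2 of the upper tags gave 1, miR-1298-5p (5.05, adjusted p = 8.59e-07, beside 7.05 for the lower tags). All 29 had the same sign in both, which their choice by these same libraries largely fixes. Sizes were smaller with the upper tags than with all 5 libraries for 27 of the 29, with a median absolute log2 fold change of 1.52 for the lower tags and 0.78 for the upper tags. miR-203-3p and miR-205-5p were the exceptions, at -1.57 and -1.85 with the upper tags and -1.27 and -1.38 with the lower tags. miR-200c-3p was at 2.28 with the lower and 1.24 with the upper tags, and miR-23b-3p at -1.58 and -0.26. The labels give the tags and do not say what the ranges stand for.

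**Figure D5:**
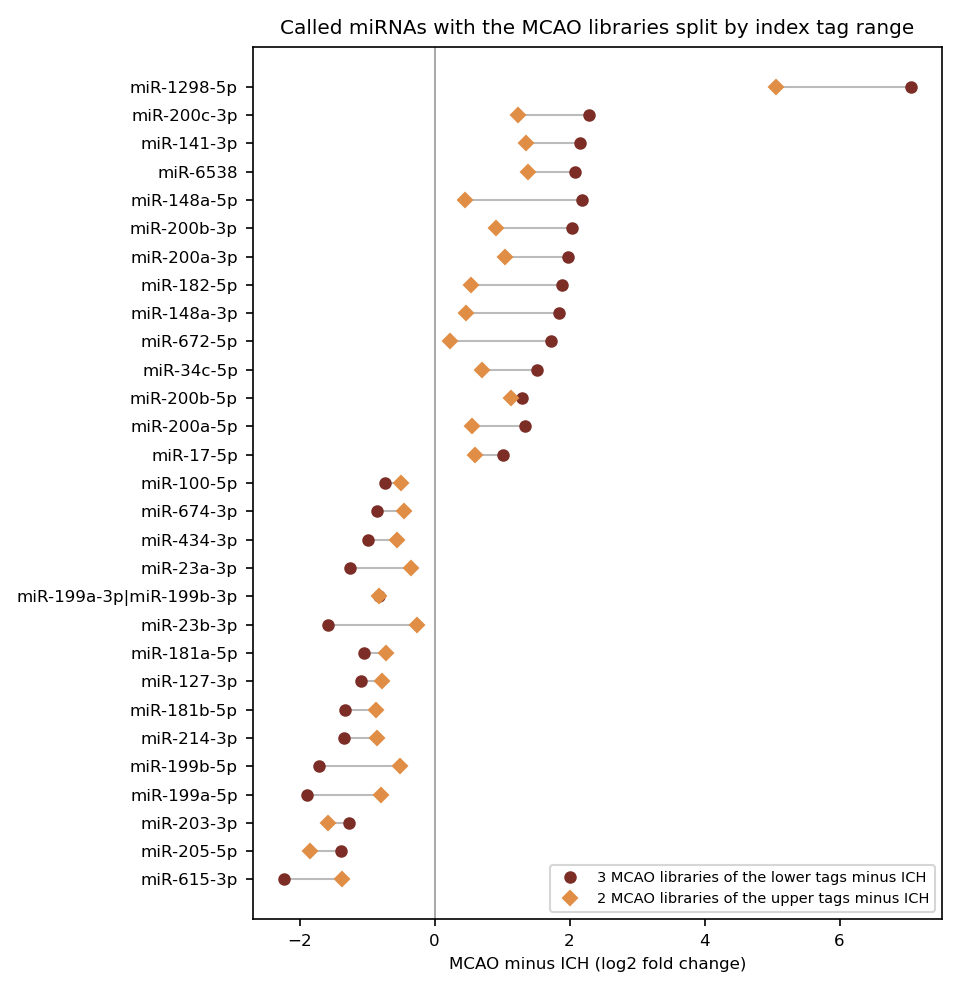
Log2 fold change over ICH of each of the 29 called miRNAs, for the 3 MCAO libraries of the lower index tags (circles) and the 2 of the upper tags (diamonds), from separate fits. All 29, which were chosen by these same libraries, keep their sign, and 27 are nearer to 0 with the upper tags than with all 5 libraries.

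The plot by index tag range shows the same order of directions with smaller sizes in MCAO 1 and 5. The fit with the upper tags has 2 MCAO libraries, so that its 1 call shows less about the other 28 than their sizes do.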

How the data were processed

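Counts of mature miRNAs were taken from the 1 table the authors deposited, whole-number counts that are not normalized, with 1892 entries, of which 967 were at 0 in every library. Per the labels' protocols, RNA came from 200 µL of serum after clotting and a second spin against residual cells, hemolysis was checked by absorbance, and libraries were made from a fixed volume of input, so that RNA yield can enter the library totals. A worm spike-in, cel-miR-39, was added per the labels' protocols and was not among the entries analysed. The submitters' processing notes name Bowtie 0.12.9. Not given in the sources used here are the build, the miRNA annotation, read trimming and the treatment of multiply matching reads. The reads carry no molecular identifiers, so intervals cover counting error only.

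Columns of the same index tag were summed to 1 library. Totals were 38393 to 315646 counts over 25 libraries. edgeR 4.0.16 (R 4.3.3) filtered with filterByExpr (minimum count 10), which kept 199 miRNAs and 99.5% of counts, scaled by TMM, and fitted a robust quasi-likelihood model with a mean per group to all 25 libraries (residual degrees of freedom 20, biological coefficient of variation 0.297). Benjamini-Hochberg adjustment ran over all 199 miRNAs of a contrast, with a threshold of 0.05; SE is the absolute log2 fold change divided by the square root of F. Contrasts were MCAO minus ICH, MCAO_Sham minus ICH_Sham, and their difference of effects (interaction). Single values per library went through two-sided permutation tests, all exact. DESeq2 1.42.0, limma 3.58.1, other scalings, filters, single runs, covariates, index tag ranges and fits leaving out 1 library were alternatives. The script was tested on simulated counts. Figures used Python 3.11.15 and matplotlib 3.10.9. Sequences and positions are from RefSeq (GRCm38.p6; 170 of the 199 matched), and host genes from GENCODE M21, also GRCm38.

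Named miRNAs were the 12 largest rises and 12 largest falls among those that passed with a stable sign, the 3 smallest p of each list, all Htr2c members with a count, miR-210-3p, miR-451a, miR-486-5p, miR-23a-3p, miR-122-5p, miR-148a-3p, the 5 smallest p of the interaction and the 5 nearest profiles to miR-1298-5p. Others, among them members of a list, family or cluster that did not pass, were named after their values were seen. The comparison, the lists and the rule were chosen with earlier results of these data known.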

Additional observations from a re-analysis of the deposited data

Results flagged for a closer look

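Among 70 groups of 5 values examined for a library far from the other 4 (gap over range above Dixon's 95% critical value), 7 were picked. Chance picks about 1 in 20 where values are independent and normally distributed. Most values here are CPM without a log, of miRNAs measured in the same libraries, so the 7 were not compared with chance. MCAO 2 was the highest MCAO library for miR-148a-3p (687120 CPM), miR-148a-5p (1077 CPM) and miR-182-5p (3803 CPM). ICH 3 was the highest ICH library for miR-205-5p (7118 CPM), the lowest for miR-6538 (19.9 CPM) and the lowest for the log2 ratio of miR-486-5p to miR-23a-3p (-0.88). ICH 1 was the lowest ICH library for miR-214-3p (60.0 CPM).

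For 2 miRNAs the effect over the matching sham differed between the stroke models by the interaction test. For miR-1298-5p the effect of MCAO exceeded that of ICH by 5.55 on the log2 scale (adjusted p = 0.0148, edgeR), and for miR-615-3p the difference was -2.75 (adjusted p = 0.0148).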

How the results depend on the processing

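The 29 calls between MCAO and ICH became 31 with DESeq2, 31 with limma voom, 22 and 26 with either run alone, 20 with libraries thinned to 1 depth, 25 with no filter and 23 to 29 under the other scalings, and no named miRNA that passed changed its sign under any alternative. They became 14 when the 10 libraries were fitted alone, 17 with a minimum count of 30 (135 miRNAs tested), 7 with miR-451a relative to miR-23a-3p as covariate, 50 with the lower index tags alone and 1 with the upper tags alone; beyond the fewer samples or miRNAs of some of these fits, the cause was not tested. The covariate fit with the level of miR-451a, chosen after seeing the data, gave 23. Leaving out 1 library gave 17 (without MCAO 2) to 39 (without MCAO 5). Library totals alone moved the median log2 fold change of all miRNAs from 0.05 to -0.09.

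With the replicate number as a replicate block, 10 miRNAs were called (3 MCAO-higher, 7 ICH-higher). Deviations of same-numbered MCAO and ICH libraries correlated at -0.28 to 0.54 over 5 pairs and 1 of 5 correlated best with its own number, so the numbers were not taken as pairs.

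Between the shams DESeq2 gave 6 calls and leaving out 1 library gave 0 to 2. The interaction gave 0 (without ICH_Sham 3) to 7 calls (without MCAO 5). Without 1 library, the difference in miR-451a relative to miR-23a-3p (log2) was 1.14 to 1.75, passing without MCAO 5 (adjusted p = 0.0238, exact permutation test), and that in the percentage of counts in miR-148a-3p was 5.06 to 13.9 points, passing without MCAO 5 (adjusted p = 0.0317, exact permutation test). miR-448-3p, miR-1264-3p and miR-210-3p were limited by counts.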
